A study of Homo sapiens with 18 samples.

Results

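The transcription factors that run the B cell and plasma cell programmes were followed as 10 genes in 2 human myeloma lines, KMS12-BM and JJN3, sequenced as 18 RNA libraries. They are IRF4, PRDM1, XBP1, POU2AF1, POU2F2, MEF2C, BCL6, PAX5, SPIB and TCF3. All 10 were chosen by name, by matching their symbols to the Ensembl identifiers of the count files, and each of the 10 matched 1 of the 57905 genes counted. The 18 libraries form 6 groups of 3, one for each line and treatment. KMS12-BM is labelled as a multiple myeloma line and JJN3 as a line of plasma cell leukemia, the form of the disease with malignant plasma cells in the blood. Each line was kept with DMSO, the solvent (labelled untreated, with no duration), or was treated for 24 h with amiloride or with TG003. Amiloride, a potassium-sparing diuretic that blocks sodium channels, was used at 0.1 mM for KMS12-BM cells and 0.4 mM for JJN3 cells. TG003, which inhibits CLK kinases and thereby the phosphorylation of splicing factors, was used at 0.4 mM for both. KMS12-BM was grown with a larger share of serum than JJN3, per the labels, so line and serum cannot be told apart in comparisons between lines. Whether the 3 libraries of each group are separate cultures is not stated in the labels, and the p-values therefore speak only for the spread among these libraries, which may be technical. Each line is a single cell line, so a difference between lines is a difference between these lines and not between diseases.

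A B cell keeps its identity through PAX5, which activates B cell genes and represses others, together with the E protein TCF3, the Ets factor SPIB and, in the germinal centre, the repressor BCL6. When it becomes a plasma cell, IRF4 and PRDM1 (the protein Blimp-1) rise and shut down PAX5 and BCL6, and XBP1, a factor of the unfolded protein response, expands the secretory apparatus for antibody. POU2F2 (Oct-2) and its coactivator POU2AF1 (OCA-B) act on the octamer element of immunoglobulin promoters, and MEF2C serves B cell activation. Myeloma cells are malignant plasma cells and are known for their dependence on IRF4.

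The libraries held 29794926 to 50570234 reads in genes for KMS12-BM and 23707695 to 44601334 for JJN3. The levels of 8 plasma cell markers were looked at. In the DMSO libraries 7 of the 8 were above 1 CPM in KMS12-BM and all 8 in JJN3, where CPM is a gene's count per 1000000 reads of the scaled library. This bar is low: JCHAIN passed it in KMS12-BM at 1.64 CPM and SLAMF7 in JJN3 at 1.99 CPM. In KMS12-BM with DMSO, 3 of 6 mature B cell markers and 2 of 3 epithelial markers passed it too. The 6 TG003 libraries stood apart from the other 12, with ranges that did not overlap for several shares of reads. Processed pseudogenes took 0.106% to 0.130% of their reads in genes, against 4.49% to 5.61% in the DMSO and amiloride libraries. Reads that HTSeq set aside as not unique were 7.79% to 9.13% of its records in the TG003 libraries, against 13.3% to 17.4% in the others, and reads in no gene were 6.42% to 8.17% against 11.4% to 13.6%. This split coincides with the treatment, so a part of it in the TG003 results cannot be told apart from the drug. When processed pseudogene counts were added to their parent genes, the fold changes of TG003 against DMSO within a line moved by at most 0.013 on the log2 scale for the tested factors. Only TCF3 and XBP1 had such counts to add, at most 17 reads and 1 read per library. For the other factors only the scaling and the estimate of spread could change. The small shift therefore cannot show the part of this split in the fold changes. The difference between lines for PRDM1 went from -0.464 to -0.535 and was then called (adjusted p = 0.0296). Mitochondrially encoded genes took 0.265% to 0.448% of reads in KMS12-BM with amiloride, against 3.86% to 4.25% with DMSO, and 0.709% to 1.035% against 2.06% to 2.61% in JJN3. The part of that shift in the amiloride results was not tested.

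On GRCh37, IRF4 lies at chr6:391739-411443 on the plus strand and PRDM1 at chr6:106441338-106557814, also on the plus strand. XBP1 lies at chr22:29190543-29196585 and POU2AF1 at chr11:111222980-111326355, both on the minus strand. POU2F2 lies at chr19:42590262-42700737, MEF2C at chr5:88012934-88200074, BCL6 at chr3:187439165-187463513, PAX5 at chr9:36833266-37034265 and TCF3 at chr19:1609290-1652614, all on the minus strand. SPIB lies at chr19:50922195-50934571 on the plus strand. All are protein-coding genes, and the counts are over their exons. SPIB shares 19.6% of its exon bases with an overlapping gene on the same strand, which had no read in any library. In the KMS12-BM libraries 9 of the 10 genes passed the filter on low counts, and BCL6 did not. In JJN3 9 of 10 passed, and PAX5 did not. In the fit of all 18 libraries, all 10 passed.

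The baseline comparison asks how the factors stand in each line before treatment. IRF4 was among the most abundant messages of both lines. Per kilobase of exon its level was 194.5 CPM in KMS12-BM with DMSO, rank 129 of 19404 protein-coding genes, and 158.5 CPM in JJN3, rank 178. XBP1 stood at 98.4 CPM per kilobase (rank 321) in KMS12-BM and 146 (rank 202) in JJN3, and POU2AF1 at 32.5 (rank 1345) and 102 (rank 329). The B cell factors did not form a block: PAX5 and POU2F2 were present in KMS12-BM and nearly absent in JJN3, whereas MEF2C was present in JJN3 and nearly absent in KMS12-BM.

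**Figure D1:**
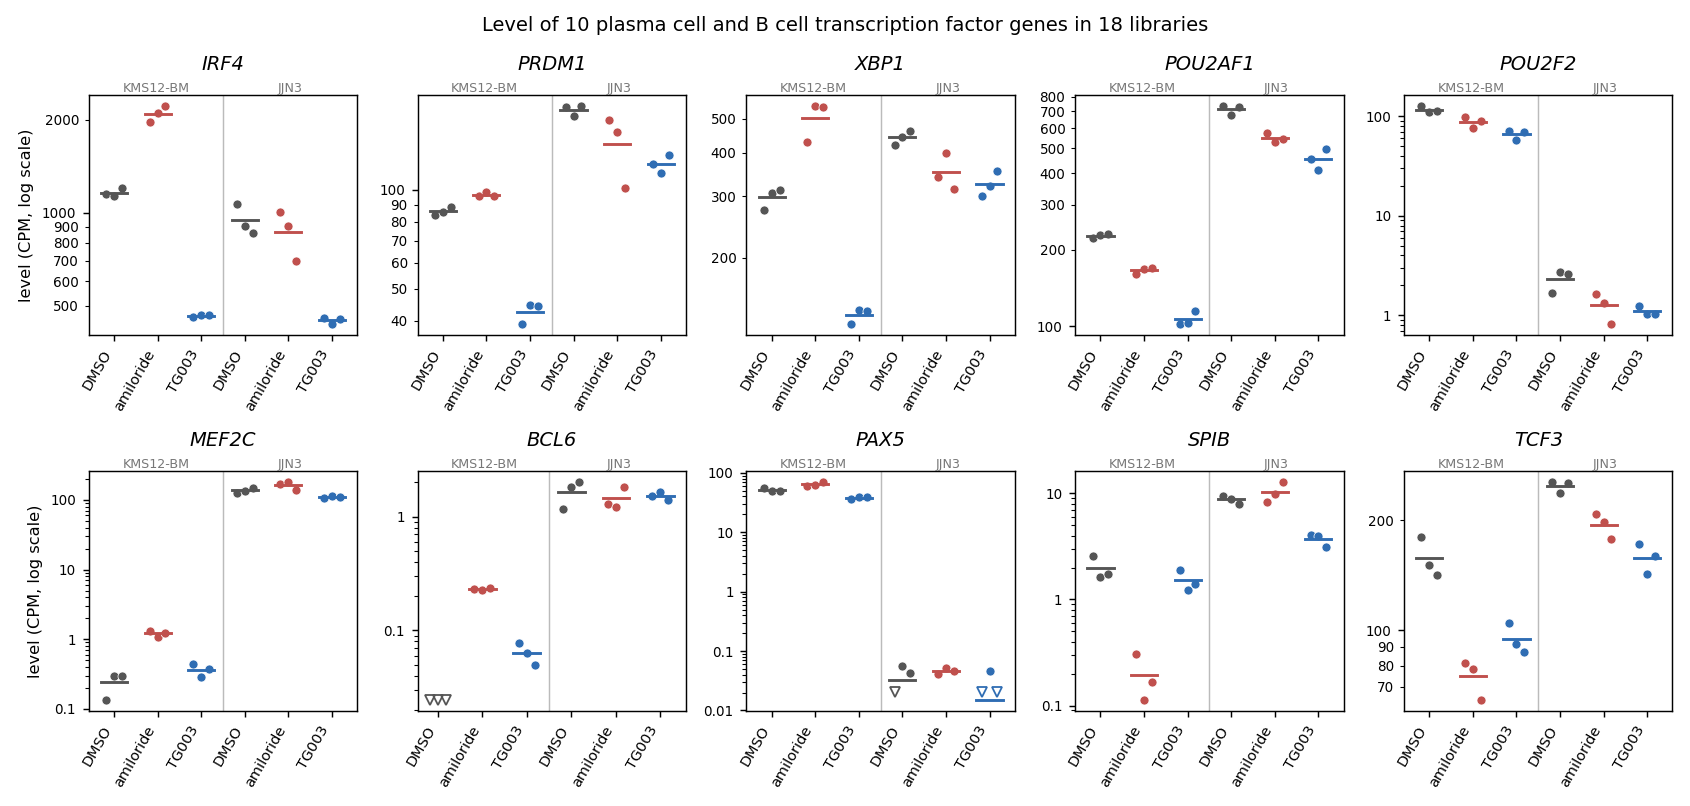
Level in CPM (log axis, own scale for each gene) of the 10 factor genes in the 18 libraries, with 1 point per library and a bar at the group mean of 3. Open triangles, drawn below the lowest value, are libraries with 0 reads; BCL6 had none in the 3 KMS12-BM libraries with DMSO, and PAX5 stayed at 2 to 5 reads per group in JJN3.

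The factors of the plasma cell state differed between the lines in both directions. IRF4 read 1148, 1130 and 1203 CPM in the 3 KMS12-BM libraries with DMSO, and 1071, 907 and 859 CPM in the 3 of JJN3. The 2 ranges did not overlap, and the log2 difference (KMS12-BM minus JJN3) was 0.30 ± 0.10 (SE; edgeR's quasi-likelihood test, Benjamini-Hochberg adjusted p = 0.0118). Without the third JJN3 library with DMSO the difference was 0.23 with an adjusted p of 0.0697. PRDM1 read 84.0, 85.4 and 88.9 CPM in KMS12-BM, and 178.5, 168 and 179 CPM in JJN3. Every JJN3 library was higher, and the log2 difference was -1.02 ± 0.12 (adjusted p = 1.02e-07). XBP1 read 275, 306 and 313.5 CPM in KMS12-BM, and 422, 443.5 and 462 CPM in JJN3. All KMS12-BM libraries lay below all JJN3 libraries, with a log2 difference of -0.57 ± 0.10 (adjusted p = 2.31e-05).

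The octamer pair was split between the lines. POU2AF1, the coactivator, read 223, 229 and 229.7 CPM in KMS12-BM, and 732, 677 and 730.1 CPM in JJN3. It was lower in KMS12-BM by a log2 difference of -1.65 ± 0.08 (adjusted p = 3.39e-14). POU2F2, the DNA-binding partner, read 126, 109.9 and 112 CPM in KMS12-BM, and 1.67, 2.73 and 2.60 CPM in JJN3. KMS12-BM was thus higher, by 5.63 ± 0.18 on the log2 scale (adjusted p = 1.8e-16). POU2F1 (Oct-1), the widely expressed factor that binds the same element, averaged 71.1 CPM in KMS12-BM and 49.7 CPM in JJN3 with DMSO.

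MEF2C read 0.135, 0.298 and 0.301 CPM in KMS12-BM, and 125, 136 and 150.1 CPM in JJN3. The reads, 31 in KMS12-BM and 11860 in JJN3, give JJN3 a level 526-fold higher, with a 95% counting interval of 371 to 775. Its relatives were present in both lines: MEF2A averaged 62.4 CPM in KMS12-BM and 74.9 in JJN3, and MEF2D 239 and 124 CPM. PAX5 read 55.5, 49.7 and 50.4 CPM in KMS12-BM, while JJN3 had 3 reads in its 3 libraries. That ratio was 1490 with a 95% interval of 510 to 7230. BCL6 had no read in the 3 KMS12-BM libraries, and 144 in JJN3 (1.16, 1.80 and 2.01 CPM), so JJN3 was at least 66.0-fold higher against a floor of 3 reads over the group. These intervals and floors cover counting error only. MEF2C, PAX5 and BCL6 passed the filter on low counts without the group where they were low, so their ratios are a description.

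SPIB read 2.57, 1.64 and 1.75 CPM in KMS12-BM, and 9.45, 8.85 and 7.999 CPM in JJN3. It was lower in KMS12-BM by a log2 difference of -2.16 ± 0.21 (adjusted p = 8.4e-09). TCF3, the E protein, read 179.6, 151 and 142 CPM in KMS12-BM, and 254, 238 and 253 CPM in JJN3. That log2 difference was -0.66 ± 0.10 (adjusted p = 7.55e-06). Of the 7 genes that passed the filter in both groups, 2 were called higher in KMS12-BM and 5 lower, where called means an adjusted p under 0.05. Over the 17772 genes tested, 36.8% were called higher and 39.3% lower. The median log2 difference was -0.66 over these 7 and -0.04 over all genes. MEF2C, PAX5 and BCL6 are left out of these counts.

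**Figure D2:**
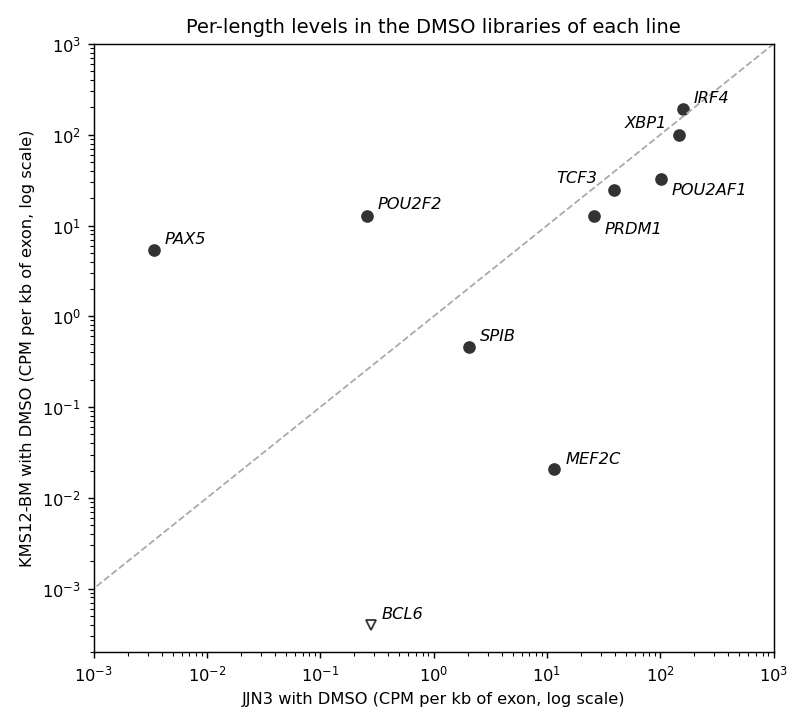
Mean level per kilobase of exon of each factor in JJN3 with DMSO (x, log axis) against KMS12-BM with DMSO (y, log axis), 3 libraries each, with the line of equal levels dashed. IRF4, XBP1 and TCF3 lie near that line, PAX5 and POU2F2 far above it and MEF2C far below; the open triangle for BCL6 marks 0 reads in KMS12-BM and its height has no meaning.

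The start sites of 9 of the 10 genes matched a RefSeq promoter entry on GRCh38.p14, with 18 promoters in all, each running from 250 bases before to 50 after the start; POU2AF1 had none. The 6 promoters below are shown because they belong to the factors that fell together under TG003 (IRF4, PRDM1, XBP1), to a pair found in KMS12-BM and nearly absent in JJN3 (PAX5, POU2F2), and to the gene with no read in KMS12-BM with DMSO (BCL6). They are printed 5′ to 3′ on the strand of the gene, in lower case, with capitals for matches on either strand to short motifs of the factors themselves. They come from chr6:391502-391801 (plus) for IRF4, chr6:106086086-106086385 (plus) for PRDM1 and chr22:28800520-28800819 (minus) for XBP1. The others are from chr9:37034219-37034518 (minus) for PAX5, chr19:42132397-42132696 (minus) for POU2F2 and chr3:187745419-187745718 (minus) for BCL6.
IRF4: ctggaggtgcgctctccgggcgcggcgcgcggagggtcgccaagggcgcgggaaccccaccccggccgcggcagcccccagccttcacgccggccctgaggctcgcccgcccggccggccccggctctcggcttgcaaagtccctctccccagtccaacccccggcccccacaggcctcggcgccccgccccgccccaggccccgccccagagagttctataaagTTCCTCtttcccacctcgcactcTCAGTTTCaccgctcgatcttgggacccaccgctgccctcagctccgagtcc
PRDM1: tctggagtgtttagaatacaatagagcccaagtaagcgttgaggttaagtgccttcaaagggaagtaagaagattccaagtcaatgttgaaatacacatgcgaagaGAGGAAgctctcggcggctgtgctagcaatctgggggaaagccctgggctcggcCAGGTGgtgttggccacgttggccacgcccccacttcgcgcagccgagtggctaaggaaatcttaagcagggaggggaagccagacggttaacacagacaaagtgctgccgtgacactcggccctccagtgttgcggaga
XBP1: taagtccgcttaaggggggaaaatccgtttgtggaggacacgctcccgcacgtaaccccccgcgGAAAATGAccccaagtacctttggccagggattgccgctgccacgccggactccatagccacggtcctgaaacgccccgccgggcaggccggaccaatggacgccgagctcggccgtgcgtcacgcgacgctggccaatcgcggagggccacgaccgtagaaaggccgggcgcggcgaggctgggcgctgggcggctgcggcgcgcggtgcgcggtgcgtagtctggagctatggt
PAX5: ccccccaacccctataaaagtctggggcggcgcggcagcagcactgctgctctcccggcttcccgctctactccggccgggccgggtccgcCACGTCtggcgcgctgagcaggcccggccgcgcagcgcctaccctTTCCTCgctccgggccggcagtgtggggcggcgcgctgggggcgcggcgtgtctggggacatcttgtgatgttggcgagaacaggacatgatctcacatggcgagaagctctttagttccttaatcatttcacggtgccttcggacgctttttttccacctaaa
POU2F2: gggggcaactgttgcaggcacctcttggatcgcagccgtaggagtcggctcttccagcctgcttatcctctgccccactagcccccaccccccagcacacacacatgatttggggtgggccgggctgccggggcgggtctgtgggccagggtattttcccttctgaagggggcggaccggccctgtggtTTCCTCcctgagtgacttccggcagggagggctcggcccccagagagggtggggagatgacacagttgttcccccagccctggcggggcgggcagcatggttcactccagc
BCL6: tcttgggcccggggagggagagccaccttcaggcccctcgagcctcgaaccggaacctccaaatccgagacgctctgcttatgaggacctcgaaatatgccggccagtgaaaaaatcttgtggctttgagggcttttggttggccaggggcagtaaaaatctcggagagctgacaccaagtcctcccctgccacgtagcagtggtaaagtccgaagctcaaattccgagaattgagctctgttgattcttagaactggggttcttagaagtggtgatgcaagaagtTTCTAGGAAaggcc

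IRF4 holds the IRF-type letters GAAANNGA on the opposite strand 2 bases before its start, read as TCAGTTTC, and the PU box GAGGAA of Ets factors such as SPIB as TTCCTC. XBP1 holds GAAAATGA, also of the GAAANNGA type. PRDM1 holds the E-box CAGGTG, of the kind E proteins such as TCF3 bind, and GAGGAA. PAX5 holds CACGTC, the reverse complement of the XBP1-type core GACGTG, and a PU box, and POU2F2 holds a PU box. BCL6 holds TTCTAGGAA, the reverse complement of the BCL6-type site TTCCTAGAA, 36 bases after its start. In these 6 promoters no match overlapped another. PRDM1, XBP1 and BCL6 each had a further promoter, not printed above, with 0 matches to these motifs. Matches of this length are common by the letters alone: among 35116 promoters of the same length, GAAANNGA stood in 20.3%, GAGGAA in 27.9%, CAGGTG in 20.6% and GACGTG in 7.81%. TTCCTAGAA is longer and stood in 0.373%. The octamer ATGCAAAT, the element of POU2F2 and POU2AF1, stood in 1.77% of promoters and in 1 of the 18 here, a promoter of MEF2C. The MEF2-type TATTTATA stood in 1.44% and in 1 of the 18, that of SPIB. A match describes letters, not a bound site.

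Amiloride at 0.1 mM moved the factors of KMS12-BM in both directions. IRF4 and XBP1, 2 factors of the plasma cell state, rose to 1.80-fold and 1.69-fold, PAX5 rose slightly, and TCF3, POU2AF1, POU2F2 and SPIB fell. Of the 7 genes that passed the filter in both groups, 3 were called higher and 3 lower, against 33.5% higher and 35.2% lower over the 15765 genes tested. The median log2 fold change was 0.17 over these 7 and -0.02 over all genes. In bulk libraries, fewer cells with a message and less message per cell cannot be told apart.

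IRF4 reached 1967, 2102 and 2213 CPM with amiloride, above all 3 DMSO libraries. Its log2 fold change was 0.85 ± 0.07 (adjusted p = 5.61e-07), and its per-kilobase rank went from 129 to 32. XBP1 read 430, 542 and 539 CPM, above the 275 to 313.5 CPM of the DMSO libraries. Its log2 fold change was 0.76 ± 0.10 (adjusted p = 2.39e-05), and 0.44 when the trend of each library with GC content was removed. PRDM1, which represses the B cell programme, read 95.7, 98.6 and 95.7 CPM. Its libraries did not overlap those with DMSO, but the log2 fold change of 0.17 ± 0.07 missed the threshold (adjusted p = 0.0592). It passed under 3 of 14 alternatives, with adjusted p from 0.0368 (DESeq2) to 0.591 (GC trend removed, where it was 0.04).

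POU2AF1 read 160, 168 and 169.5 CPM, below all DMSO libraries (log2 fold change -0.45 ± 0.07, adjusted p = 0.000103). With the GC trend removed it was -0.26. POU2F2 read 98.1, 75.9 and 89.7 CPM, also below the DMSO range, at -0.40 ± 0.11 (adjusted p = 0.00688). That call was lost with the GC trend removed, at -0.15 and an adjusted p of 0.218. TCF3 read 81.5, 78.5 and 64.5 CPM, less than any DMSO library, at -1.07 ± 0.12 (adjusted p = 8.05e-06). TCF3 has the highest GC content of the 10 genes, 62.6% of its longest transcript, and its fold change was -0.47 (adjusted p = 1.86e-05) with the GC trend removed. PAX5, the B cell identity factor, read 60.4, 62.6 and 69.9 CPM, above all DMSO libraries at 0.31 ± 0.08 (adjusted p = 0.00635), and at 0.51 with the GC trend removed.

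The 3 scarce factors changed by large ratios on few reads. SPIB read 0.307, 0.113 and 0.168 CPM with amiloride, 22 reads in all against 229 with DMSO. The groups did not overlap, and the log2 fold change was -3.31 ± 0.35 (adjusted p = 6.53e-06). MEF2C rose from 31 to 136 reads, to 1.33, 1.07 and 1.24 CPM, a log2 fold change of 2.23 ± 0.29 (adjusted p = 2.95e-05). Its mean of 1.21 CPM stayed far under the 164 CPM of JJN3 with amiloride. BCL6 had 26 reads over the 3 amiloride libraries and 0 with DMSO, at least 9.18-fold higher against the floor. SPIB and MEF2C passed the filter without their low group, so they had to differ to be tested, and these values are a description.

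In JJN3, amiloride at 0.4 mM gave no call of a higher factor, with MEF2C close to the threshold. XBP1, POU2AF1, POU2F2 and TCF3 fell, and the other 5 genes tested were not called. By edgeR, 0 of 9 were called higher and 4 of 9 lower, against 19.7% and 23.9% of the 15704 genes tested. At an unadjusted p under 0.05, 1 was higher (MEF2C), and DESeq2 called 1 higher. The median log2 fold change was -0.34 over the 9 genes and -0.03 over all genes.

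IRF4 read 1004, 904.5 and 698.5 CPM, a range that overlapped the DMSO libraries. Its log2 fold change of -0.13 had a 95% interval of -0.39 to 0.14 (adjusted p = 0.417). PRDM1 read 163.5, 150.2 and 101 CPM, just below the DMSO range, at -0.35 ± 0.14 (adjusted p = 0.0712). It was called under 3 of 14 alternatives, DESeq2 among them (adjusted p = 0.0466), with adjusted p from 0.00201 to 0.154. The third amiloride library was the lowest of the 3 for IRF4, PRDM1 and XBP1 alike. XBP1 read 342, 399 and 315 CPM, all below the DMSO libraries, at -0.34 ± 0.09 (adjusted p = 0.00836). POU2AF1 read 576, 532 and 547 CPM, also below them, at -0.38 ± 0.08 (adjusted p = 0.00273).

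POU2F2 fell from 205 to 126 reads, to 1.63, 1.35 and 0.819 CPM, a log2 fold change of -0.93 ± 0.26 (adjusted p = 0.0107). Without the second DMSO library it was -0.80 with an adjusted p of 0.0531. TCF3 read 208, 197 and 177 CPM, below every DMSO library, at -0.36 ± 0.09 (adjusted p = 0.00448). MEF2C read 172, 181 and 138 CPM and overlapped DMSO, at 0.25 ± 0.10 (adjusted p = 0.0514). It was called under 7 of 14 alternatives, among them DESeq2 (adjusted p = 0.0353) and both other scalings, and its adjusted p ranged from 0.00485 to 0.18 over the 14. SPIB read 8.21, 9.89 and 12.8 CPM, with a log2 fold change of 0.23 ± 0.15 (adjusted p = 0.243). BCL6, at 1.29, 1.22 and 1.83 CPM, gave -0.19 ± 0.24 (adjusted p = 0.552), and PAX5 had 5 reads over the 3 libraries.

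**Figure D3:**
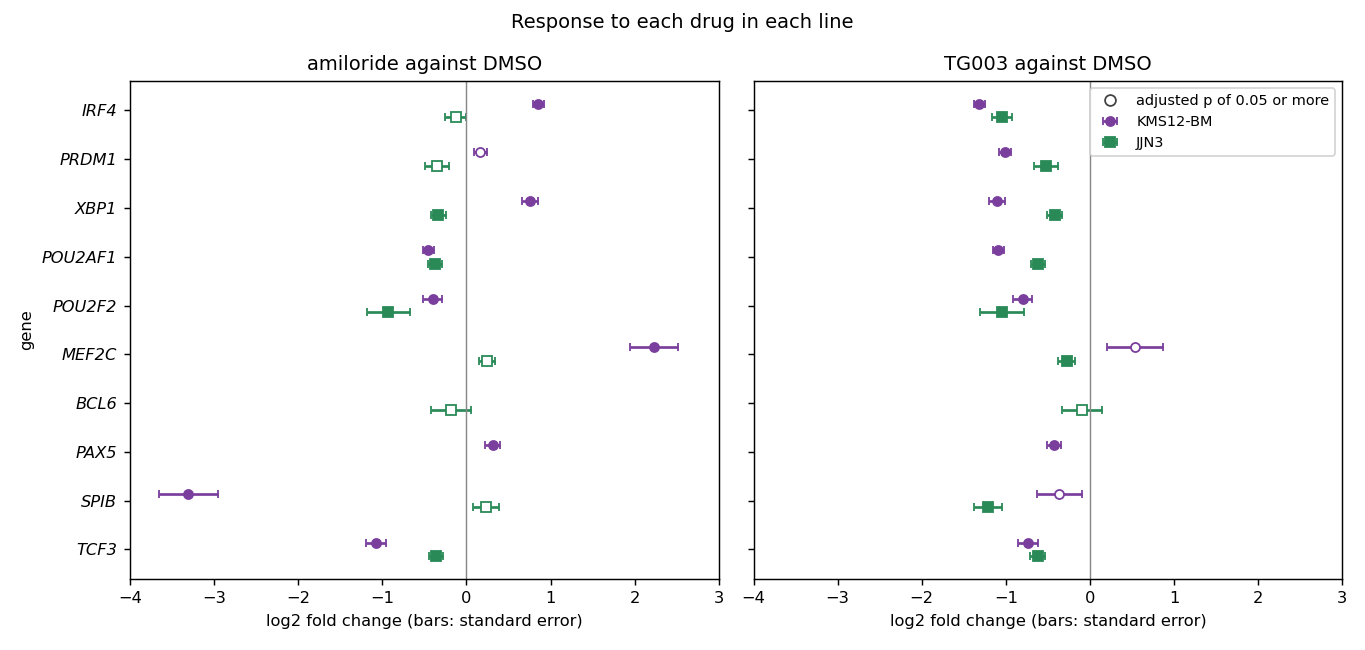
Log2 fold change of each factor against DMSO, with its standard error, for amiloride (left) and TG003 (right) in KMS12-BM (circles) and JJN3 (squares); filled symbols have an adjusted p under 0.05, and a gene not tested in a line has no symbol. Under amiloride IRF4 and XBP1 lie right of 0 in KMS12-BM and left of it in JJN3, where the IRF4 symbol is open. Under TG003 the filled symbols of both lines all lie left of 0.

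The lines were then compared directly, by the interaction of line and drug in 1 fit of all 18 libraries. Because the amiloride doses differed, line and dose cannot be told apart in it. The responses of IRF4, PRDM1, XBP1, MEF2C and BCL6 were called higher in KMS12-BM than in JJN3, and those of SPIB and TCF3 lower. MEF2C, BCL6 and SPIB passed the filter without the KMS12-BM group or groups where they were low, so their calls are a description. Of the 6 genes that passed in all 4 groups, 3 were called higher and 1 lower, against 21.6% called higher and 21.6% called lower among the 17772 genes. The median difference was 0.53 over these 6 and 0.01 over all genes. For XBP1, the difference in log2 fold change was 1.09 ± 0.14 (adjusted p = 2.68e-06), with a rise in KMS12-BM and a fall in JJN3. For IRF4 it was 0.97 ± 0.14 (adjusted p = 1.35e-05), and for PRDM1 0.51 ± 0.16 (adjusted p = 0.016). PRDM1's difference was 0.32 (adjusted p = 0.0195) without the third JJN3 amiloride library. For TCF3 it was -0.72 ± 0.15 (adjusted p = 0.000423), but -0.24 with an adjusted p of 0.0593 when the GC trend was removed. POU2AF1 fell in both lines, and the difference was -0.08 with a 95% interval of -0.30 to 0.13 (adjusted p = 0.568).

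TG003 lowered the plasma cell factors in both lines. In KMS12-BM, IRF4, PRDM1, XBP1 and POU2AF1 fell to between 0.402 and 0.498 times their DMSO level, and POU2F2, PAX5 and TCF3 fell less. Of the 8 genes that passed the filter in both groups, 0 were called higher and 7 lower by edgeR, against 26.9% and 31.7% of the 15765 genes tested. At an unadjusted p under 0.05 and with DESeq2, 0 of these 8 were higher. The median log2 fold change was -0.90 over the 8 and -0.03 over all genes.

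IRF4 read 460.5, 465 and 467 CPM with TG003, below every DMSO library, and its log2 fold change was -1.32 ± 0.07 (adjusted p = 1.02e-08). PRDM1 read 39.1, 44.5 and 44.4 CPM, at -1.01 ± 0.07 (adjusted p = 4.06e-07). XBP1 read 129, 142 and 141 CPM, at -1.11 ± 0.10 (adjusted p = 1.78e-06). In none of the 3 did a TG003 library overlap a DMSO library. POU2AF1 read 102, 103 and 115 CPM, at -1.09 ± 0.07 (adjusted p = 1.03e-07). POU2F2 read 70.7, 58.4 and 70.2 CPM, at -0.80 ± 0.11 (adjusted p = 9.08e-05). Both members of the octamer pair thus fell below their DMSO range.

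PAX5 read 36.5, 38.9 and 39.7 CPM, at -0.43 ± 0.09 (adjusted p = 0.00116), and TCF3 read 105, 91.4 and 87.4 CPM, at -0.73 ± 0.12 (adjusted p = 0.000244). Both lay below all their DMSO libraries. SPIB, at 1.90, 1.24 and 1.403 CPM, overlapped DMSO with a log2 fold change of -0.37 ± 0.27 (adjusted p = 0.263). MEF2C, at 0.443, 0.286 and 0.369 CPM, did so at 0.54 ± 0.33 (adjusted p = 0.187). BCL6 had 7 reads with TG003 and 0 with DMSO, at least 2.53-fold higher against the floor.

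In JJN3, TG003 lowered 8 of the 9 genes tested and raised 0, against 32.1% called lower and 26.2% called higher over the 15704 genes by edgeR. At an unadjusted p under 0.05 and with DESeq2, 0 were higher. The median log2 fold change was -0.62 over the 9 genes and -0.04 over all genes. IRF4 read 455, 436 and 454 CPM, below every DMSO library, at -1.05 ± 0.12 (adjusted p = 1.35e-05). Under TG003 IRF4 stood at 464 ± 3.30 CPM in KMS12-BM and 448.5 ± 10.6 CPM in JJN3 (SD, n = 3), although the ranges did not overlap. PRDM1 read 119.5, 112 and 127 CPM, at -0.52 ± 0.14 (adjusted p = 0.0096). That call was lost with the GC trend removed, at -0.30 and an adjusted p of 0.0953. XBP1 read 299.8, 320.1 and 354 CPM, all below the DMSO libraries, at -0.42 ± 0.09 (adjusted p = 0.00137).

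POU2AF1 read 456, 409.5 and 496.5 CPM, at -0.62 ± 0.08 (adjusted p = 3.02e-05), and its ranges did not overlap. POU2F2 fell to 113 reads, at 1.26, 1.04 and 1.04 CPM, with a log2 fold change of -1.05 ± 0.26 (adjusted p = 0.00381). SPIB read 4.02, 3.95 and 3.15 CPM, under every DMSO library, at -1.21 ± 0.17 (adjusted p = 3.77e-05). TCF3 read 172, 143 and 159.5 CPM, at -0.62 ± 0.09 (adjusted p = 4.18e-05). MEF2C read 107, 113 and 112 CPM, at -0.28 ± 0.10 (adjusted p = 0.0244). Its adjusted p was 0.0504 to 0.107 when the third DMSO library or any 1 of the 3 TG003 libraries was left out, and its fold change was -0.50 (adjusted p = 0.000372) with the GC trend removed. BCL6 read 1.51, 1.64 and 1.39 CPM, with a log2 fold change of -0.09 and a 95% interval of -0.60 to 0.41 (adjusted p = 0.752). PAX5 had 2 reads.

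The TG003 dose was the same in both lines, although the share of serum was not, and fewer responses differed. XBP1 and POU2AF1 fell further in KMS12-BM than in JJN3, by -0.67 ± 0.14 (adjusted p = 0.0028) and -0.44 ± 0.10 (adjusted p = 0.00654) on the log2 scale. Of the 7 genes that passed the filter in all 4 groups, these 2 were called lower and 0 higher by edgeR, against 6.80% and 7.13% of all genes. By DESeq2 and at an unadjusted p under 0.05, 1 was higher (SPIB). The medians of the difference were -0.25 over the 7 and 0.02 over all genes. BCL6 was called higher on few reads and passed only through JJN3. Of all genes called, 51.2% were higher, and 36.8% when pseudogene counts were summed into their parents. For IRF4 the difference was -0.25 with a 95% interval of -0.54 to 0.05 (adjusted p = 0.291), and for PRDM1 -0.46 ± 0.17 (adjusted p = 0.0675). SPIB gave 0.88 ± 0.31 (adjusted p = 0.0615). PRDM1 passed the threshold under 4 of 20 alternatives, with adjusted p from 0.00284 to 0.156, and SPIB under 5 of 20, with adjusted p from 0.0212 to 0.186. Both passed with no filter, with the GC trend removed and with the compared groups alone.

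**Figure D4:**
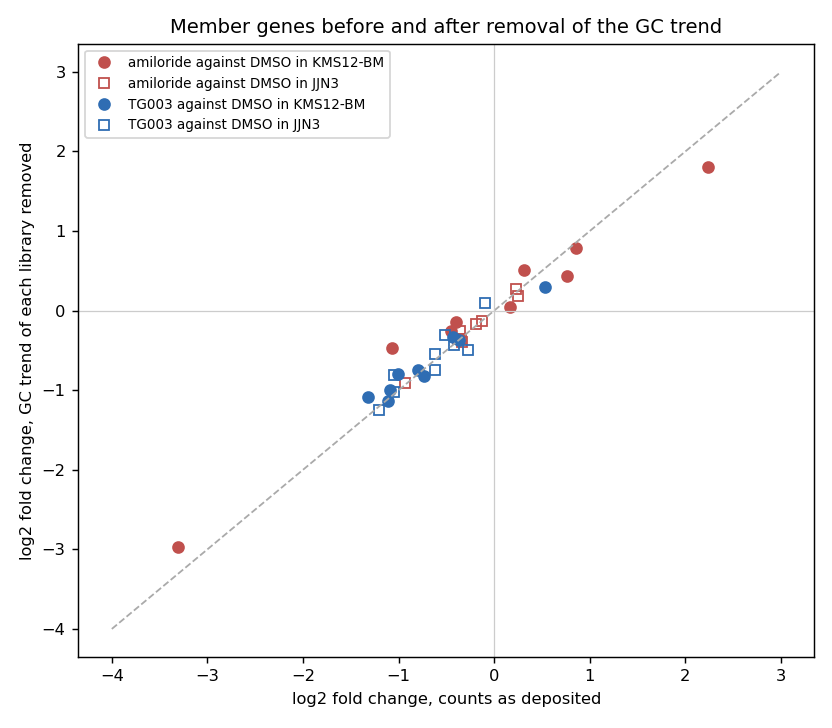
Log2 fold change of the tested factors against DMSO in the counts as deposited (x) and after removal of the trend of each library with GC content (y). GC content is that of a gene's longest transcript. The line of equality is dashed, circles are KMS12-BM and squares JJN3. The points of amiloride in KMS12-BM move most, with TCF3 going from -1.07 to -0.47 and XBP1 from 0.76 to 0.44.

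Across the 6 groups, IRF4 was highest in KMS12-BM with amiloride and lowest in JJN3 with TG003. Of its neighbouring groups in that order, only those of JJN3 with DMSO and with amiloride overlapped. XBP1 was highest in KMS12-BM with amiloride, which overlapped JJN3 with DMSO, and lowest in KMS12-BM with TG003. POU2AF1 ran from JJN3 with DMSO down to KMS12-BM with TG003 with no overlap between neighbours. PRDM1 ran from JJN3 with DMSO to KMS12-BM with TG003, and only amiloride and TG003 in JJN3 overlapped. TCF3 was highest in JJN3 with DMSO and lowest in KMS12-BM with amiloride, and JJN3 with TG003 overlapped KMS12-BM with DMSO. SPIB was highest in JJN3 with amiloride, which overlapped DMSO, and lowest in KMS12-BM with amiloride.

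The other regulators of the B cell and plasma cell programmes were taken as a list of 27 genes, of which 20 passed the filter in each line. Under amiloride 9 rose and 6 fell in KMS12-BM, against 33.5% and 35.2% of all genes, and 5 rose and 7 fell in JJN3, against 19.7% and 23.9%. Under TG003 2 rose and 11 fell in KMS12-BM (26.9% and 31.7% of all genes), and 3 rose and 12 fell in JJN3 (26.2% and 32.1%). List genes that passed the filter only through the group where they were high had to differ, so the counts of lists are a description. Their medians under TG003 were -0.45 and -0.33, against -0.03 and -0.04 over all genes. In KMS12-BM, amiloride raised BACH2, a repressor of the plasma cell programme and of PRDM1, from 8.64 to 74.6 CPM (log2 fold change 3.11 ± 0.17, adjusted p = 7.42e-08). BACH2 did not pass in JJN3, at 0.10 ± 0.10, and the difference between lines was 3.003 ± 0.200 (adjusted p = 1.15e-09). ID3, an inhibitor of E proteins such as TCF3, fell in KMS12-BM from 44.01 to 2.91 CPM, at -3.91 ± 0.27, and in JJN3 at -1.08 ± 0.26. ID2, of the same family, fell most under TG003 in KMS12-BM, from 65.3 to 17.7 CPM (-1.87 ± 0.12). TCF12, another E protein, rose with amiloride by 0.92 ± 0.08 in KMS12-BM and 0.37 ± 0.06 in JJN3, while TCF3 fell in both. TCF4, an E protein too, rose in JJN3 with amiloride (0.42 ± 0.07) and with TG003 (0.29 ± 0.07). In KMS12-BM it rose with amiloride (0.32 ± 0.06) and fell with TG003 (-0.33 ± 0.06). RUNX3, a Runt factor, rose with amiloride in JJN3 (0.97 ± 0.10) and in KMS12-BM (0.93 ± 0.10). Its relative RUNX1 fell in JJN3 with TG003 (-0.93 ± 0.16). EZH2, the histone methyltransferase of Polycomb, rose with TG003 in KMS12-BM (0.47 ± 0.14) and JJN3 (0.43 ± 0.13), and ETS1, an Ets factor, fell with TG003 in KMS12-BM (-0.86 ± 0.07).

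MYC, a target of IRF4 in myeloma, fell in all 4 drug comparisons. Its log2 fold change was -1.08 ± 0.13 with amiloride and -1.01 ± 0.13 with TG003 in KMS12-BM, and -0.63 ± 0.08 and -0.46 ± 0.08 in JJN3. IRF4 itself fell in the 2 TG003 comparisons and rose in KMS12-BM with amiloride. CIITA, the master factor of MHC class II and a target that PRDM1 represses, fell with amiloride in KMS12-BM (-2.12 ± 0.23) and in JJN3 (-1.12 ± 0.14). POU2F1 rose with amiloride in KMS12-BM (0.85 ± 0.16), where POU2F2 fell, and it fell with TG003 in both lines (-0.43 ± 0.16 and -0.51 ± 0.10). Of the MEF2 family, MEF2A rose with amiloride in KMS12-BM (0.74 ± 0.09) and MEF2D fell (-1.21 ± 0.13). MEF2D also fell with TG003, at -1.37 ± 0.13 in KMS12-BM and -0.37 ± 0.09 in JJN3. MEF2B rose in KMS12-BM under both drugs from a mean of 0.196 CPM to 0.901 and 0.672 CPM. With DMSO it lay below the filter on low counts, so this rise is a description. IKZF1 (Ikaros), upstream of IRF4 in myeloma, did not pass with amiloride in KMS12-BM (0.02 ± 0.09) and fell with TG003 (-0.64 ± 0.09). IKZF3 (Aiolos) was at -0.18 ± 0.11 with TG003 in KMS12-BM and was not called. In JJN3 IKZF1 rose with amiloride (0.258 ± 0.063, adjusted p = 0.00537) and fell with TG003 (-0.158 ± 0.063, adjusted p = 0.0467). There IKZF3 rose with TG003 (0.217 ± 0.085, adjusted p = 0.0427) and was not called with amiloride (0.207 ± 0.085). At baseline SPI1 (PU.1), the Ets relative of SPIB, averaged 15.5 CPM in KMS12-BM and had no read in JJN3.

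Genes of the secretory pathway that XBP1 is known to drive, a list of 24, all passed the filter. With amiloride 6 rose and 12 fell in KMS12-BM, where XBP1 rose, against 33.5% and 35.2% of all genes, and 2 rose and 13 fell in JJN3, against 19.7% and 23.9%. With TG003 1 rose and 17 fell in KMS12-BM (26.9% and 31.7% of all genes), and 2 rose and 14 fell in JJN3 (26.2% and 32.1%). The medians were -0.26, -0.27, -0.44 and -0.29 in that order, against -0.02 to -0.04 over all genes. In KMS12-BM, amiloride raised EDEM1, which sends misfolded glycoproteins to degradation, by 1.49 ± 0.07, and the chaperone cofactor DNAJB9 by 1.20 ± 0.10. There PDIA4, a disulfide isomerase, fell by 1.72 and MANF, a protein of the endoplasmic reticulum, by 1.29 on the log2 scale. In JJN3 with amiloride, SRP19 (0.42 ± 0.07), a protein of the signal recognition particle, and the chaperone cofactor DNAJB11 (0.31 ± 0.07) rose, and CRELD2 (-0.93 ± 0.12) and SSR1 (-0.50 ± 0.07) fell. With TG003, SEC24D, a coat protein of vesicles that leave the endoplasmic reticulum, rose in KMS12-BM (0.37 ± 0.12) and JJN3 (0.30 ± 0.08), as did SRP54 in JJN3 (0.24 ± 0.07). The chaperone HYOU1 (-0.88 ± 0.07) and HERPUD1 (-1.09 ± 0.09) fell with TG003 in KMS12-BM, and DNAJB11 (-0.68 ± 0.08) and DNAJB9 (-0.99 ± 0.13) in JJN3. With amiloride ERN1, the sensor IRE1 that splices XBP1 message, rose in KMS12-BM (0.53 ± 0.12) and fell in JJN3 (-0.54 ± 0.09). The difference between these amiloride responses was 1.06 ± 0.15 (adjusted p = 1.08e-05), in which line and dose cannot be told apart. The counts are per gene and do not separate spliced from unspliced XBP1.

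**Figure D5:**
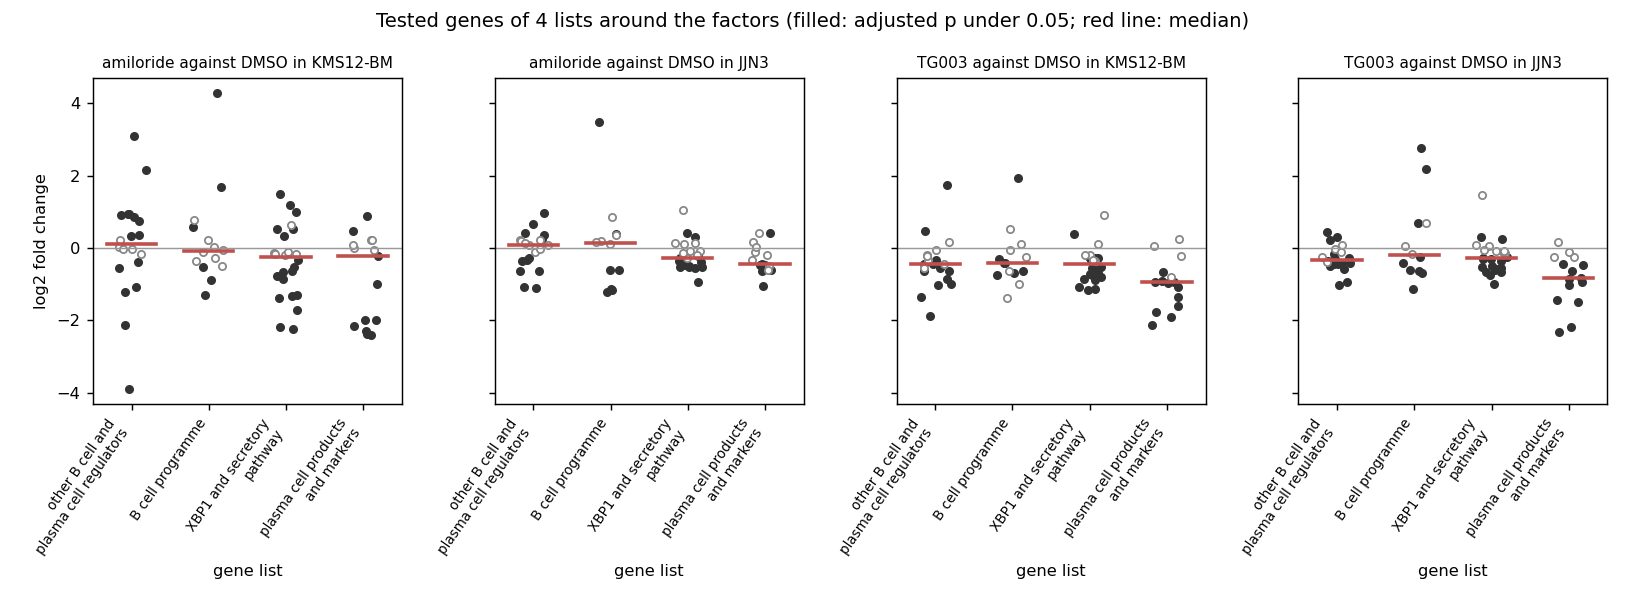
Log2 fold change against DMSO of the genes that passed the filter in 4 lists around the factors, 1 panel per comparison; points are genes, filled where the adjusted p is under 0.05, and red lines are medians. Under TG003 the medians of the 4 lists lie below 0 in both lines, while in KMS12-BM with amiloride the points reach from -3.91 (ID3) to 4.28 (VPREB3).

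B cell programme genes, a list of 22 with targets of PAX5, POU2AF1 and CIITA, split by line as PAX5 did only in part. At baseline, of 15 that passed the filter, 7 were called higher in KMS12-BM and 8 lower, against 36.8% and 39.3% of all genes. BTK, the kinase of the B cell receptor, averaged 204 CPM in KMS12-BM and 0.199 in JJN3, the adaptor BLNK 97.7 and 0.691, and CD79A, a receptor chain, 63.9 and 0.210 CPM. MHC class II ran the other way, with HLA-DRA at 3.81 CPM in KMS12-BM and 4056 in JJN3. With amiloride in KMS12-BM, where PAX5 rose, 3 of 14 rose and 3 fell, against 33.5% and 35.2% of all genes. BTK fell by 0.89 and BLNK by 0.53 on the log2 scale there. With TG003, where PAX5 fell, 1 of 14 rose and 6 fell, against 26.9% and 31.7% of all genes, among them BTK by 0.64 and CD79B by 0.74.

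The genes whose pattern was most like that of each factor were taken over the 18 libraries, after the mean of each line was removed, among 10815 genes with a mean of at least 5 CPM. These correlations are a description: the points share libraries and treatments. For IRF4 they were ZHX1 (r = 0.983), TNFAIP8 (0.979) and CASP6 (0.978). For PRDM1 they were TMED10 (0.966), TENT5C (0.963) and KCNA3 (0.959). XBP1 was most like HERPUD1 (0.985), STK4 (0.978) and ESCO1 (0.975), of which HERPUD1 is also on the list of secretory genes. POU2AF1 was most like CHMP3 (0.951), APOBEC3C (0.95) and HSP90B1 (0.949), and POU2F2 like CDA (0.917), RNF157 (0.913) and COL9A3 (0.891). MEF2C was most like MIER1 (0.956), LCORL (0.95) and KPNA5 (0.944). PAX5 was most like TBX5 (0.913), ZNF626 (0.867) and MINDY2 (0.844), and TCF3 like TSPO (0.976), FGFRL1 (0.971) and LRP5 (0.969). PAX5 met the mean of 5 CPM through KMS12-BM only. In JJN3 it had 3, 5 and 2 reads with DMSO, amiloride and TG003, so its correlations rest in part on counting noise. Among the factors themselves, IRF4 and XBP1 gave 0.925, IRF4 and PRDM1 0.915, and PRDM1 and XBP1 0.915. The lowest value was that of TCF3 and MEF2C, -0.631. MEF2C met the mean of 5 CPM through JJN3 only. In KMS12-BM its values rest on 31, 136 and 41 reads with DMSO, amiloride and TG003, which limits all its correlations.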

How the data were processed

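Poly(A)+ RNA was measured with strand-specific libraries, per the labels and the series' design text, in 18 libraries, 3 in each of 6 groups. Per the submitters' processing notes, the authors trimmed adapters with cutadapt 1.4, aligned to hg19 with TopHat2 2.0.11, counted with HTSeq 0.6.1p1 and tested with DESeq2 1.12.4. Alignment options, annotation and the strand setting of the counting were not given in the sources used here. Each deposited file holds whole-number read counts per Ensembl gene, with no normalization. The deposited normalized tables were not used here. HTSeq's records outside genes were 17.5% to 31.2% of all records per library and stayed out of library sizes and tests.

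Symbols and GRCh37 coordinates came from the annotation by identifier, which matched 55538 of 57905 genes. Genes were kept with filterByExpr (minimum count 10, total 15) and scaled by TMM. edgeR 4.0.16 in R 4.3.3 ran robust quasi-likelihood tests, with each line's 9 libraries in 1 fit for drugs and all 18 in 1 fit for the baseline and interactions. P-values were Benjamini-Hochberg adjusted over all tested genes, and a gene was called at an adjusted p under 0.05. The standard error, written after ±, is the fold change divided by the square root of F. Levels are CPM scaled by TMM over all 18 libraries. The reads carry no molecular identifiers, so intervals cover counting error only. The procedure was tested on simulated data.

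Alternatives were median-of-ratios and upper-quartile scaling, no filter, DESeq2 1.42.0, a block for the order of library numbers, GC trend removal, processed pseudogenes summed into parents, a fit of only the 2 groups compared, and leaving out each library. The genes and lists were chosen with earlier results of these data known. All 10 factors are named. For the lists the rule took the 2 smallest adjusted p per direction and comparison, and regulators tied to the factors. The text names all of these for regulators and secretory genes in the 4 drug comparisons and only some elsewhere, and other list genes named were chosen after their values were seen. Replicates of a group differed by 9.31 to 33.4 times sampling noise (chi-square per degree of freedom), so none was a copy of another's reads. This does not tell whether they were separate cultures.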

Additional observations from a re-analysis of the deposited data

Results flagged for a closer look

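In 10 cases the drug response of a factor was called different between the lines, by the interaction term of 1 edgeR fit over all 18 libraries. Benjamini-Hochberg adjustment was over 17772 genes. Of these, 21.6% were called higher and 21.6% lower for amiloride, and 7.13% and 6.8% for TG003. Values are the log2 fold change in KMS12-BM minus that in JJN3. Under amiloride the difference was 0.97 for IRF4, 0.51 for PRDM1, 1.09 for XBP1, 1.955 for MEF2C, -3.54 for SPIB and -0.72 for TCF3. BCL6 was called with an adjusted p of 1.51e-05, and no fold is given because it had 0 reads in KMS12-BM with DMSO. KMS12-BM received 0.1 mM amiloride and JJN3 0.4 mM, so line and dose cannot be told apart. Under TG003, at 0.4 mM in both lines, the difference was -0.67 for XBP1 and -0.44 for POU2AF1, and BCL6 was called with an adjusted p of 0.0133 on 7 reads in the KMS12-BM TG003 libraries. MEF2C and SPIB rest on 31 and 22 reads in their low groups of KMS12-BM. MEF2C, SPIB and BCL6 passed the filter without the KMS12-BM group or groups where they were low, so their calls are a description.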

How the results depend on the processing

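Of 42 calls for single factors, 36 held under every alternative run and 0 changed sign. The calls of BCL6 at baseline and in both interactions, and of PAX5 and MEF2C at baseline, were left out of this check. So was PAX5 in the interactions, where it was not called. Of the 922 values recomputed for single factors, 882 kept direction and side of the threshold, 9 lost a call, 26 gained one and 5 changed sign. The 6 calls that were lost are given with their genes above. POU2F2 gained a call in the amiloride interaction under 4 of 20 alternatives, among them GC trend removal (0.78, adjusted p = 0.0194), with adjusted p up to 0.413. The number of factors called for the TG003 interaction was 3, but 5 with no filter, with the GC trend removed or with the compared groups alone, and 2 to 4 with a library left out. Sign changes concerned values that were not called. IRF4 under amiloride in JJN3 was -0.251 to 0.005 with a library left out. BCL6 under TG003 in JJN3 was -0.288 to 0.050 in that way, and 0.093 with the GC trend removed. POU2AF1 in the amiloride interaction was 0.093 with the GC trend removed. TCF3 in the TG003 interaction was -0.158 to 0.015 with a library left out. The cause was not tested. With upper-quartile scaling the median of all genes moved by under 0.1 in each comparison. Blocking for the order of library numbers left 6 of the 7 counts of factors as they were and moved amiloride in KMS12-BM from 8 to 9 (PRDM1, adjusted p = 0.0482). The labels give no pairing, but the library numbers run in sets of 6, each with a library of every group. Within a line, deviations of libraries in the same set correlated at -0.071 to 0.27, and of those in different sets at -0.232 to 0.111. The main fit has no term for the set. SPIB, MEF2C and BCL6 in KMS12-BM, and PAX5, POU2F2 and BCL6 in JJN3, rest on few reads, which limits their precision.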

Other observations

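Plasma cell products and surface markers, a list of 16 genes, did not follow 1 direction with the factors. In KMS12-BM with amiloride, where IRF4 and XBP1 rose, 2 of 15 rose and 8 fell, against 33.5% and 35.2% of all genes. SDC1 (CD138), the antigen that defines plasma cells, fell from 13.6 to 2.58 CPM and FKBP11, a folding enzyme of secretory cells, from 149 to 33.1 CPM. ELL2, an elongation factor for secretory immunoglobulin message, rose from 29.2 to 54.2 CPM. With TG003 11 of 15 fell and 0 rose in each line by edgeR (0 higher at an unadjusted p under 0.05 and with DESeq2), against 31.7% of all genes called lower in KMS12-BM and 32.1% in JJN3. TNFRSF17 (BCMA) fell from 120 to 39.5 CPM in KMS12-BM and from 101 to 22.0 CPM in JJN3. At baseline JCHAIN, the joining chain of polymeric antibody, averaged 1.64 CPM in KMS12-BM and 2567 CPM in JJN3.

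VPREB3, a gene of early B cells on the B cell list, was called higher in all 4 drug comparisons. It went from 0.421 to 8.53 CPM with amiloride in KMS12-BM and from 0.137 to 1.603 CPM in JJN3. In JJN3 with DMSO, at 0.126 to 0.145 CPM, it lay below the filter on low counts. There it had to be higher with a drug to be tested, so its JJN3 calls are a description. Some markers of other tissues were present in the DMSO libraries. HBB, a globin chain, averaged 59.9 CPM in JJN3 and 0.0314 CPM in KMS12-BM. EPCAM averaged 113 CPM in KMS12-BM and 24.5 CPM in JJN3, and KRT8 28.2 CPM in KMS12-BM, with KRT19 at 0. Summed T cell markers reached 2.29 CPM at most in any library.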
